A study of Mus musculus with 6 samples.

Results

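The genes described here encode the general splicing machinery, namely the SR proteins, the Tra2 proteins, the heterogeneous nuclear ribonucleoproteins (hnRNPs), the proteins of the small nuclear ribonucleoproteins (snRNPs), the U2AF subunits and the SF3A and SF3B subunits. They were chosen by name. Gene names that start with Srsf, Hnrnp, Hnrp, Sf3a, Sf3b, U2af, Snrp (followed by a letter from a to g) or Tra2 entered, and pseudogenes were left out. No measured value decides whether a name meets this rule, but the genes were chosen with earlier results of these data known. Of 38553 entries in the expression table, 56 met this rule. They comprise 11 SR proteins, 2 Tra2 proteins, 21 hnRNP entries, 11 snRNP proteins, 3 U2AF subunits and 8 SF3A and SF3B subunits. Of these, 55 passed a filter on low values (an FPKM above 5 in each of the 3 samples of at least 1 group), which left 10061 genes in the whole table. The entry that did not pass was a second one named *Hnrnpr* (ENSMUSG00000086084), at an FPKM of 1.58 to 2.05.

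RNA-Seq was performed on whole craniofacial tissue microdissected at E12.5 from 3 control embryos, which were Rbfox2 flox/flox and carried no Cre, and from 3 mutant embryos, which were Pax3Cre/+:Rbfox2 flox/flox. All 6 samples therefore share the floxed *Rbfox2* alleles, and the mice were kept on mixed genetic backgrounds. The Cre is knocked into *Pax3* and acts in neural crest and also in paraxial mesoderm and somite derivatives, so cells of the face outside these lineages keep *Rbfox2*. Levels are in FPKM (fragment counts corrected for gene length and sequencing depth), which can be compared between genes of a sample. Comparisons between samples also depend on the scaling, because the summed FPKM differed between samples, and other scalings were run as alternatives. In bulk tissue, fewer cells that express a gene and less RNA per cell cannot be told apart.

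Splicing removes introns in a spliceosome that is built anew on each one. SR proteins, and the related Tra2 proteins, bind exons and recruit the machinery, whereas hnRNPs coat the precursor RNA and often oppose them. U2AF and then the SF3A and SF3B complexes of the U2 snRNP recognise the end of the intron and its branch point, while Sm proteins form the ring at the core of the snRNPs. Rbfox2, the protein deleted in the mutants, is a tissue-specific regulator that works on top of this machinery by binding the letters UGCAUG in the precursor RNA. The comparison asks whether the RNA level of the general machinery differed between tissue with and without *Rbfox2* in the Pax3 lineage. Only the mutants carried the Cre and the *Pax3* allele that holds it, so their effect cannot be told apart from that of the *Rbfox2* loss.

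The letters bound by Rbfox2 occur in the mature transcripts of some of these genes, and the matches inside coding sequence are shown because they lie in exons of the machinery itself. In the longest coding transcript of each gene (GENCODE M21, GRCm38, transcript strand only, written as TGCATG), 22 of 55 genes held at least 1 match, which is 40.0%, against 55.1% of 10005 tested genes with an annotated transcript. The transcripts were shorter than those of all tested genes (median 2427 against 3150 bases). Of 39 matches, 30 lay in 3′ untranslated regions of 18 genes, 5 in 5′ untranslated regions of 4 genes and 4 in coding sequence of 4 genes. Introns, where most Rbfox sites act, were not searched here. The 4 coding matches are given 5′ to 3′ with the motif in capitals and 10 bases on each side.
Sf3b2: gttgtggagaTGCATGacgtgacggc
Sf3b3: agatgtggtgTGCATGagtctggcca
U2af1l4: gggcaggctgTGCATGccgagctgtc
Hnrpll: tcctcttacaTGCATGgaggcagtcc
The motif lies in exon 12 of 21 of *Sf3b2* (chr19:5286383-5286388, minus strand), exon 14 of 26 of *Sf3b3* (chr8:110824261-110824266, minus strand), exon 6 of 8 of *U2af1l4* (chr7:30564544-30564549, plus strand) and exon 8 of 13 of *Hnrpll* (chr17:80038699-80038704, minus strand). A match of 6 letters is a description of the sequence and not a binding site.

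*Rbfox2* (ENSMUSG00000033565, chromosome 15 of GRCm38 from 77078990 to 77307004, minus strand) had an FPKM of 58.4, 65.0 and 61.3 in control replicates 1, 2 and 3 and of 38.1, 36.3 and 34.3 in mutant replicates 1, 2 and 3, in the direction of the labels. The log2 fold change was -0.75 (standard error 0.079, limma with Benjamini-Hochberg adjustment, adjusted p = 0.138), and an exact two-sided permutation test gave p = 0.10, the smallest that 3 samples against 3 allow. FPKM summed over all entries was 528123 to 590174 per sample, and the read count behind a value is unknown. All 10 markers of facial mesenchyme were above 0 in every sample, with a summed FPKM of 440 to 494 in controls and 397 to 487 in mutants, and 9 of the 10 had a log2 fold change below 0, none at an unadjusted p under 0.05. Values below 0 were also found in 5 of 5 tested muscle markers and 5 of 6 epithelial markers, again without an unadjusted p under 0.05. The same held for 4 of 4 tested nuclear long noncoding RNAs, of which 1, *Xist*, was lower at that threshold. *Xist* stood at 98.8, 116 and 73.7 FPKM in control replicates 1, 2 and 3. In mutant replicates 1, 2 and 3 it stood at 0.383, 0.330 and 52.7. Its low values were those of the mutants with the high Y-linked levels given below. The 8 neuronal markers summed to 714 to 781 in controls and 848 to 937 in mutants, and 4 of them were higher in mutants at an unadjusted p under 0.05. In replicate 1 the neuronal sums were 781 in the control and 848 in the mutant, and the part of all these markers in the values of the splicing genes was not tested. Replicate 1 of the controls and replicate 1 of the mutants differed from the other 4 samples in many genes, and for the named genes that this touches most the value over replicates 2 and 3 alone is given as well. On the Y chromosome, 4 genes (*Uty*, *Kdm5d*, *Ddx3y* and *Eif2s3y*) were at an FPKM of 9.24 to 23.8 in mutant replicates 1 and 2 and at 0.142 or below in the 3 controls and mutant replicate 3, so genotype and sex can be told apart only through mutant replicate 3.

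The general splicing genes were among the most abundant transcripts of this tissue. Their median FPKM was 177 and that of all tested genes 20.3, with 54 of 55 above that median and 39 among the highest 10% of genes. *Hnrnpa1*, an hnRNP best known for repressing exons, led them with 1142, 1227 and 1327 FPKM in control replicates 1, 2 and 3 and 1132, 1311 and 1427 in mutant replicates 1, 2 and 3, and ranked 47 of 10061. *Srsf12*, an SR-like protein, was the lowest of the 55 at 5.06 to 6.17 FPKM and ranked 9869. By median level the hnRNPs came first with 251 FPKM, followed by the snRNP proteins with 184, the U2AF subunits with 182, the Tra2 proteins with 147, the SR proteins with 145 and the SF3A and SF3B subunits with 77.2. The ranges of neighbouring groups in this order overlapped widely. Summed FPKM of all 56 entries made up 2.15%, 2.20% and 2.33% of the total in control replicates 1, 2 and 3 and 2.15%, 2.27% and 2.38% in mutant replicates 1, 2 and 3. The shares of the first replicates were thus the lowest in each group, and the groups overlapped.

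**Figure D1:**
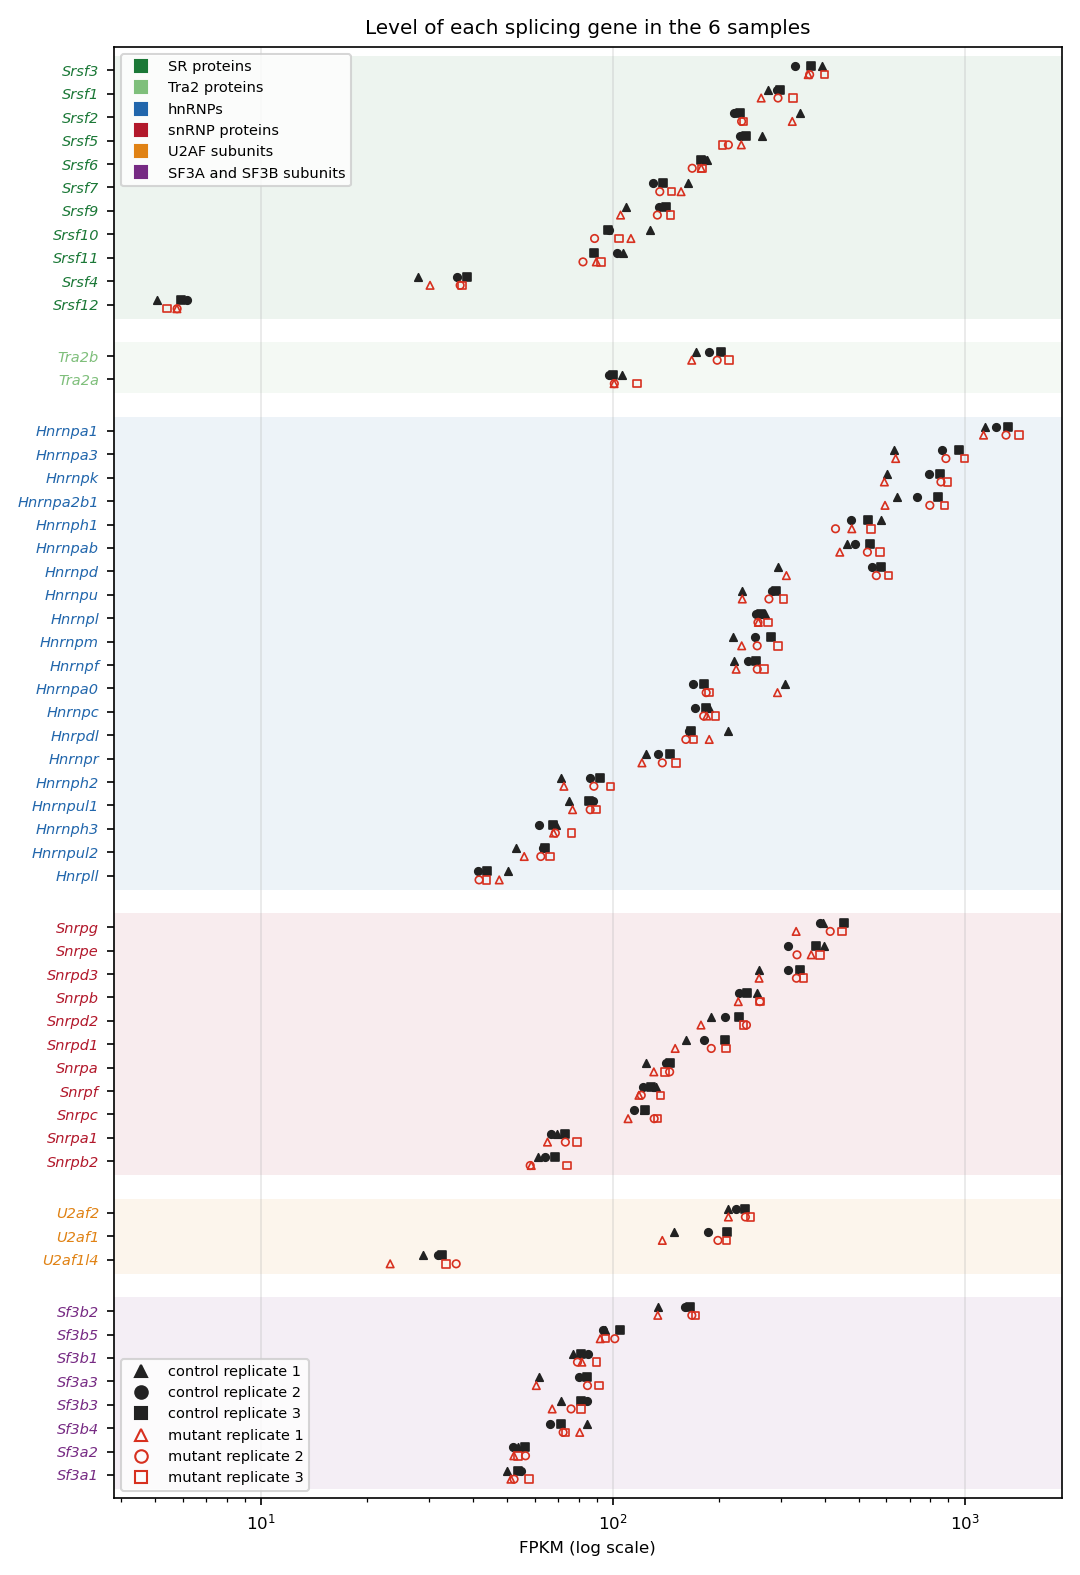
FPKM (log scale, x axis) of each of the 55 splicing genes (y axis, ordered by role and level) in each of 3 control samples (filled) and 3 mutant samples (open), with a marker shape for each replicate number. The values of control and mutant samples are interspersed in every gene, and the triangles of both groups stand apart from the other symbols in genes such as *Hnrnpd*, *Hnrnpa0* and *Srsf2*.

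No difference between mutants and controls was detected in any of the 55 genes. With limma and Benjamini-Hochberg adjustment over all genes, 0 of 55 had an adjusted p under 0.05, as did 0 of 10061 genes tested (0%). With a term for the replicates numbered 1 in the fit the count stayed at 0 of 55 (0.0298% of all genes). At an unadjusted p under 0.05 it was again 0 of 55, against 167 of 10061 genes (1.66%), of which 0.706% of all genes were higher and 0.954% lower in mutants. In none of the 55 did the 3 control values lie all above or all below the 3 mutant values, a separation seen in 5% of all genes (2.63% higher and 2.37% lower in mutants). In log2 fold change the 55 genes had a median of 0.024 and all genes tested one of 0.0057, and the values of the 55 ran from -0.18 for *Srsf5* to 0.10 for *Hnrnph3*. Without regard to sign, the medians were 0.039 and 0.054.

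How large a difference these samples could have hidden is given by the intervals. The 95% limma interval of the log2 fold change lay within 0.5 of 0 on both sides for 51 of 55 genes, against 85.8% of all genes tested, a count chosen after the data were seen. The exceptions were *Hnrnpd*, *Hnrnpa0*, *Hnrnpa3* and *Hnrnpk*, whose first replicates lay far from the others. With a term for the replicates numbered 1 in the fit, the interval was within 0.5 of 0 for all 55 genes, against 94.4% of all genes, and the outermost bounds were -0.37 and 0.27. The median standard error was 0.11 without and 0.059 with that term. With the mean of the 4 Y-linked genes as a covariate instead, the interval was within 0.5 of 0 for only 22 of 55 genes, against 51.6% of all genes.

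**Figure D2:**
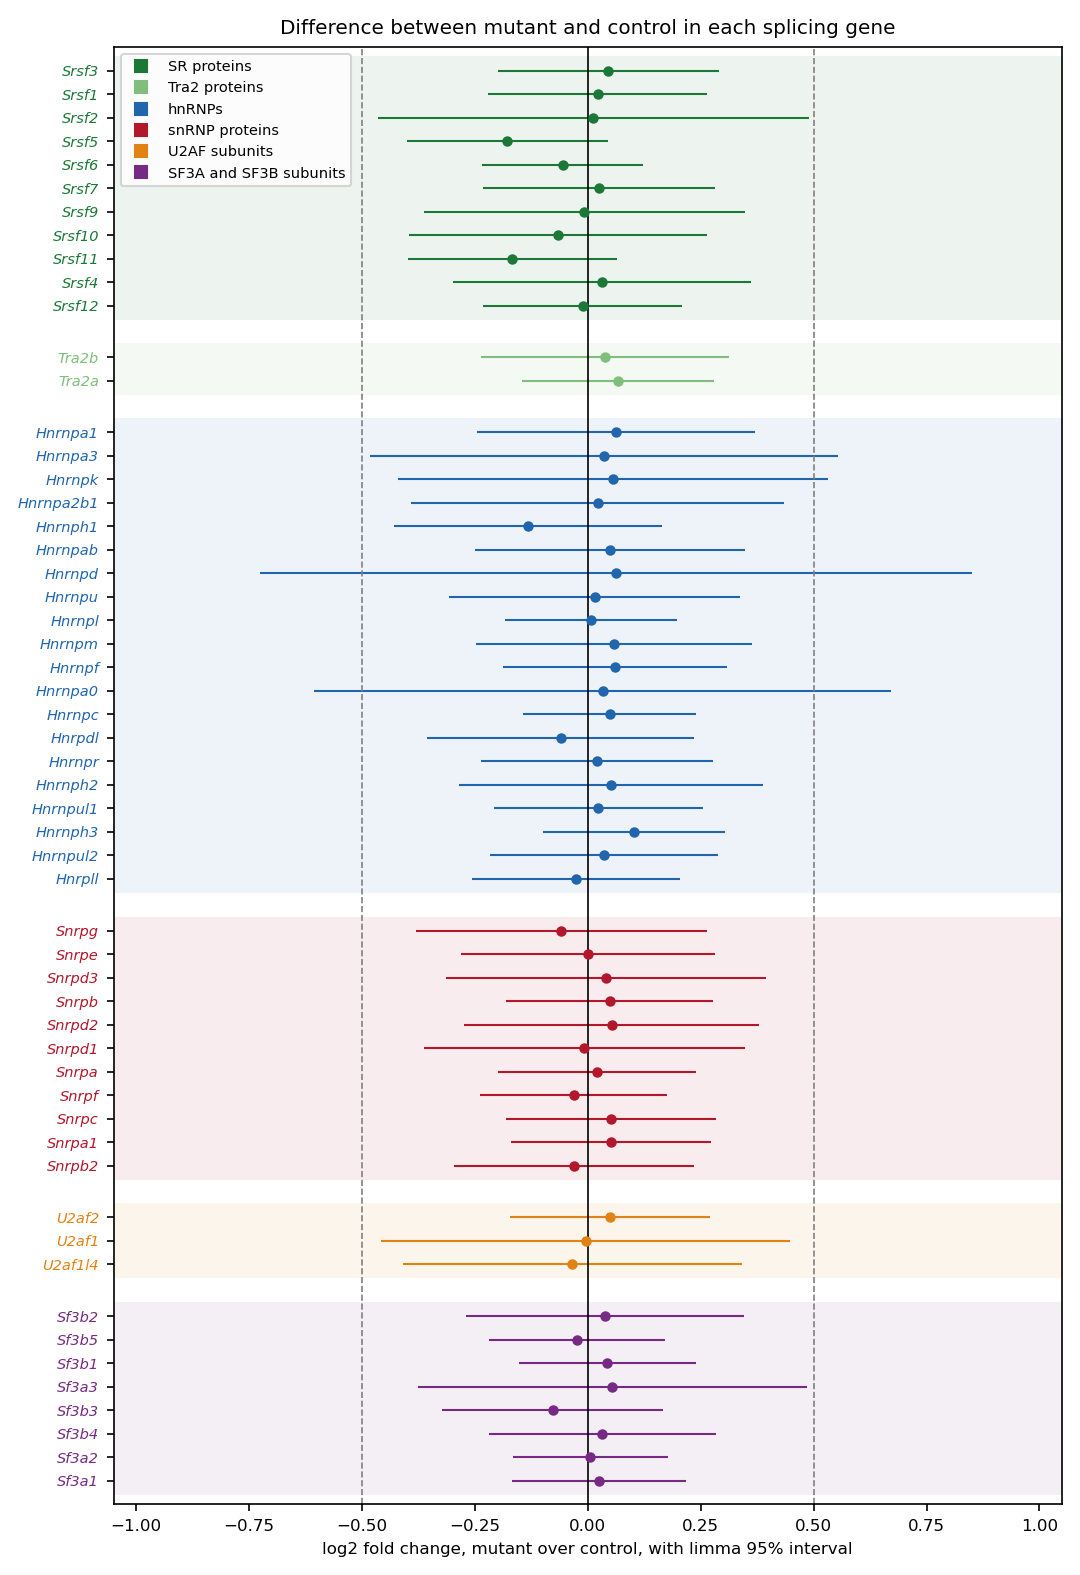
Log2 fold change of mutant over control (x axis, points) with the limma 95% interval (bars) for each of the 55 splicing genes (y axis, ordered by role and level). Every interval includes 0, and 51 of 55 lie between the dashed lines at -0.5 and 0.5.

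The log2 fold change was above 0 in 38 of 55 genes (69.1%), against 52.8% of all genes tested. In the mutant of every replicate number 8 genes were higher (14.5%), a share close to the 13.6% of all genes. Only *Srsf5* was lower in the mutant of every replicate number, against 13.1% of all genes. The median difference of the 55 genes was -0.061 between the replicates numbered 1, 0.061 between those numbered 2 and 0.059 between those numbered 3. The direction thus differed between replicate numbers. Without mutant replicate 3 the count above 0 was 13 of 55 (43.9% of all genes), and without control replicate 1 it was 22 of 55 (44.0%).

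Among the SR proteins, 5 of 11 had a log2 fold change above 0 and 6 below, with a median of -0.0074. *Srsf5* (ENSMUSG00000021134, chromosome 12 of GRCm38 from 80945504 to 80950507, plus strand) had the largest size of difference of all 55 genes, with 265, 231 and 240 FPKM in control replicates 1, 2 and 3 and 232, 213 and 205 in mutant replicates 1, 2 and 3. The 2 groups met at one point, where mutant replicate 1 was slightly above control replicate 2, and each mutant was below the control of the same number. The log2 fold change was -0.18 (standard error 0.095, 95% interval -0.40 to 0.045, limma adjusted p = 1.0). The differences by replicate number were -0.19, -0.11 and -0.23. With the replicate number as a block, *Srsf5* was the only gene of the 55 with an unadjusted p under 0.05, against 6% of all genes, and its adjusted p was 0.785 in limma. With a term for the first replicates it was likewise the only one, against 6.07% of all genes.

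*Srsf3*, the smallest SR protein, was the most abundant of the group and also had its highest log2 fold change. It stood at 395, 329 and 366 FPKM in control replicates 1, 2 and 3 and at 360, 363 and 400 in mutant replicates 1, 2 and 3. The highest value was a mutant and the lowest a control, the other 4 lay between them, and the log2 fold change was 0.045 (standard error 0.10). *Srsf11*, which was singled out once its values were known, had a difference close to that of *Srsf5* in size, -0.17 (standard error 0.098), with 107, 103 and 88.7 FPKM in controls and 89.8, 82.3 and 92.6 in mutants. Its replicates numbered 3 went the other way, by 0.063. *Srsf1* and *Srsf2*, the founding members of the family, had log2 fold changes of 0.022 and 0.012.

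Both Tra2 proteins, sequence-specific activators of exons, were slightly above 0. *Tra2a* (ENSMUSG00000029817) stood at 106, 97.4 and 100 FPKM in control replicates 1, 2 and 3 and at 101, 101 and 117 in mutant replicates 1, 2 and 3, and its log2 fold change was 0.067 (standard error 0.090). *Tra2b*, the more abundant of the pair, stood at 172, 188 and 203 FPKM in controls and at 168, 198 and 214 in mutants, which gave a log2 fold change of 0.038 (standard error 0.12), or 0.077 over replicates 2 and 3 alone. In both genes mutant replicate 3 held the highest value and the other values of the groups overlapped.

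Of the 20 hnRNPs tested, 17 had a log2 fold change above 0 and 3 below, with a median of 0.036 and a range of -0.13 to 0.10. *Hnrnph1*, which binds runs of G, had the lowest, with 580, 477 and 530 FPKM in control replicates 1, 2 and 3 and 478, 430 and 542 in mutant replicates 1, 2 and 3. The highest value was a control and the lowest a mutant, but mutant replicate 3 exceeded control replicate 3. Its log2 fold change was -0.13 (standard error 0.13), and the differences by replicate number were -0.28, -0.15 and 0.032. *Hnrnph3*, a shorter relative of *Hnrnph1*, had the highest, 0.10 (standard error 0.086), with 69.1, 61.6 and 67.6 FPKM in controls and 67.9, 68.7 and 76.5 in mutants. Mutant replicate 3 alone lay above all controls. *Hnrnpa1* had a log2 fold change of 0.063 (standard error 0.13), or 0.10 over replicates 2 and 3 alone.

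The 7 Sm proteins and the 4 proteins specific to the U1 and U2 snRNPs gave 7 values above 0 and 4 below, with a median of 0.020 and a range of -0.059 to 0.053. *Snrpg*, an Sm protein, was the most abundant and the lowest in log2 fold change, with 395, 389 and 455 FPKM in control replicates 1, 2 and 3 and 332, 415 and 449 in mutant replicates 1, 2 and 3. Only mutant replicate 1 lay below the controls. The log2 fold change was -0.059 (standard error 0.14), and over replicates 2 and 3 alone it was 0.037. *Snrpd2*, a further Sm protein, had the highest, 0.053 (standard error 0.14), with 190, 208 and 228 FPKM in controls and 178, 240 and 236 in mutants, so that its mutants included the lowest sample and also the 2 highest. Over replicates 2 and 3 alone the log2 fold change of *Snrpd2* was 0.13.

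The U2AF subunits differed by no more than 0.049 on the log2 scale. *U2af2*, which binds the pyrimidine tract, stood at 213, 224 and 238 FPKM in control replicates 1, 2 and 3 and at 213, 238 and 246 in mutant replicates 1, 2 and 3. Each mutant was above the control of its number, but the groups overlapped, and the log2 fold change was 0.049 (standard error 0.094), or 0.071 over replicates 2 and 3 alone. *U2af1l4*, a less abundant relative of *U2af1* that carries one of the coding motifs shown above, stood at 29.0, 31.9 and 32.8 FPKM in controls and at 23.3, 35.9 and 33.6 in mutants. The mutants spanned the controls on both sides, and the log2 fold change was -0.035 (standard error 0.16), or 0.099 over replicates 2 and 3 alone.

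Of the 8 subunits of SF3A and SF3B, 6 were above 0 and 2 below, with a median of 0.028. *Sf3b2* and *Sf3b3*, which both carry a coding motif, differed in opposite directions. *Sf3b2*, the most abundant, stood at 134, 160 and 166 FPKM in control replicates 1, 2 and 3 and at 134, 168 and 172 in mutant replicates 1, 2 and 3, and its log2 fold change was 0.039 (standard error 0.13). *Sf3b3* stood at 71.5, 84.6 and 81.3 FPKM in controls and at 67.3, 76.2 and 81.4 in mutants, and had the lowest log2 fold change of the group, -0.078 (standard error 0.10). *Sf3a3* had the highest, 0.055 (standard error 0.18), with 61.7, 80.2 and 84.7 FPKM in controls and 60.7, 84.8 and 91.5 in mutants. In all 3 genes the first replicate was the lowest of its group, and the groups overlapped. Over replicates 2 and 3 alone the log2 fold changes were 0.057 for *Sf3b2*, -0.074 for *Sf3b3* and 0.094 for *Sf3a3*.

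**Figure D3:**
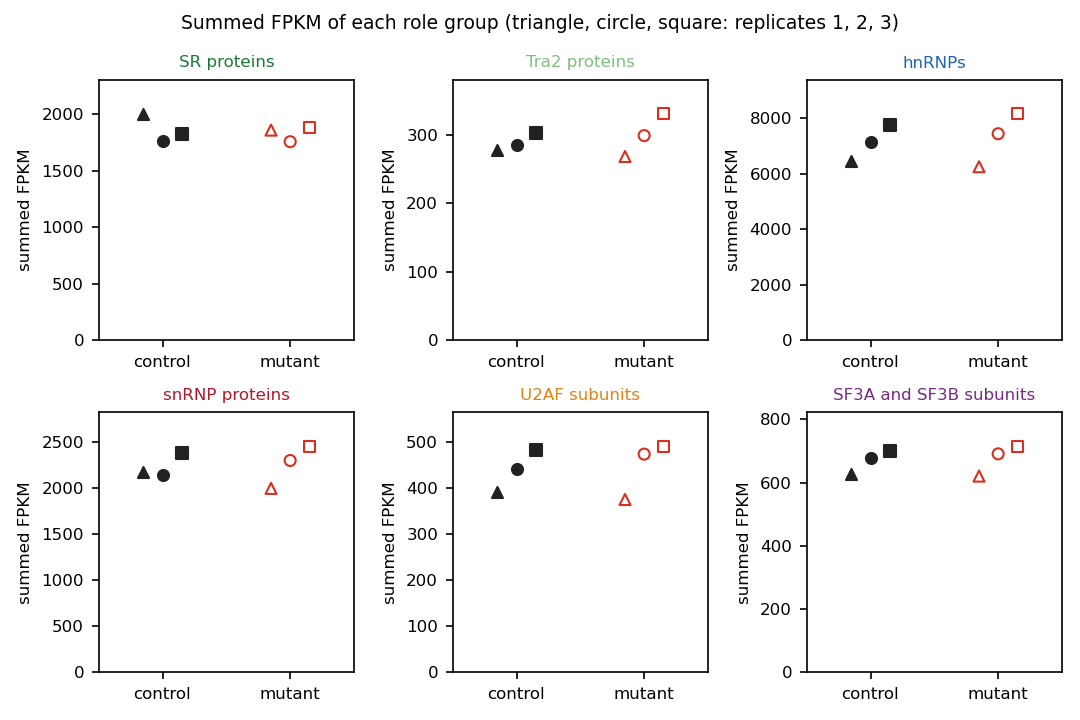
Summed FPKM (y axis, from 0) of the genes of each role group in the 3 control (filled) and 3 mutant (open) samples, 1 panel per group. Control and mutant sums overlap in all 6 panels, and the first replicates (triangles) hold the lowest sum of their group of samples for hnRNPs, Tra2 proteins, U2AF subunits and SF3A and SF3B subunits, in the mutants alone for snRNP proteins, and in neither group for SR proteins.

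The largest differences among the 6 samples ran between replicate numbers and not between genotypes. In 35 of 55 genes both first replicates lay outside the range of the other 4 samples, above them in 7 and below them in 28. Of all genes tested, 53.1% did so, 18.4% above and 34.7% below. *Hnrnpd* (ENSMUSG00000000568, chromosome 5 of GRCm38 from 99955935 to 99978938, minus strand), also called Auf1, which binds AU-rich RNA, had 296 FPKM in replicate 1 of the controls and 312 in that of the mutants, while the other controls had 547 and 578 and the other mutants 561 and 609. The first replicates were thus lower by a log2 difference of -0.93 in controls and -0.91 in mutants. *Hnrnpa3* stood at 629 and 637 FPKM in the first replicates against 860 to 999.9 in the others, and *Hnrnpk*, a binder of C-rich RNA, at 601 and 592 against 793 to 895.

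In the opposite direction, *Hnrnpa0*, an hnRNP of the A family whose transcript has 1 exon, was more abundant in replicate 1 of the controls (308 FPKM) and of the mutants (294) than in the other controls (170 and 182) and the other mutants (184 and 188). *Srsf2*, the SR protein also known as SC35, stood at 340 and 324 FPKM against 222 to 236. The 7 genes higher in the first replicates, identified from their values, were *Hnrnpa0*, *Srsf2*, *Srsf10*, *Hnrpdl*, *Sf3b4*, *Srsf7* and *Hnrpll*. Between mutants and controls over replicates 2 and 3 alone, the log2 fold change was 0.055 for *Hnrnpd*, 0.045 for *Hnrnpa3*, 0.094 for *Hnrnpk*, 0.083 for *Hnrnpa0* and 0.053 for *Srsf2*. By role, 13 of 20 hnRNPs were below and 3 above, while the SR proteins split into 3 below and 3 above. The ratio of summed hnRNP to summed SR protein FPKM was 3.22 and 3.36 in the first replicates of controls and mutants, while it was 4.05 and 4.25 in the other controls and 4.24 and 4.34 in the other mutants. Since the first replicates were set apart by these same data, the values are a description.

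The pattern had the same form in both genotypes. Across the 55 genes, the distance of replicate 1 from the mean of replicates 2 and 3 in controls correlated with that in mutants (Pearson's r 0.91, Spearman's rho 0.85), against 0.64 and 0.68 across the 10061 genes tested. The genes share libraries and are not independent replicates. The mean distance had a rho of -0.044 with the GC content of the longest coding transcript and of -0.067 with its length. The 7 proliferation markers summed to 652 to 690 FPKM in the first replicates and to 815 to 913 in the others. The 6 erythroid markers summed to 8161 to 8447 in the first replicates and to 4208 to 8679 in the others. Skeletal muscle markers summed to 114 to 115 FPKM in the first replicates and 124 to 284 in the others, and epithelial markers to 113 to 114 and 121 to 201. The part of these in the values of the splicing genes was not tested.

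**Figure D4:**
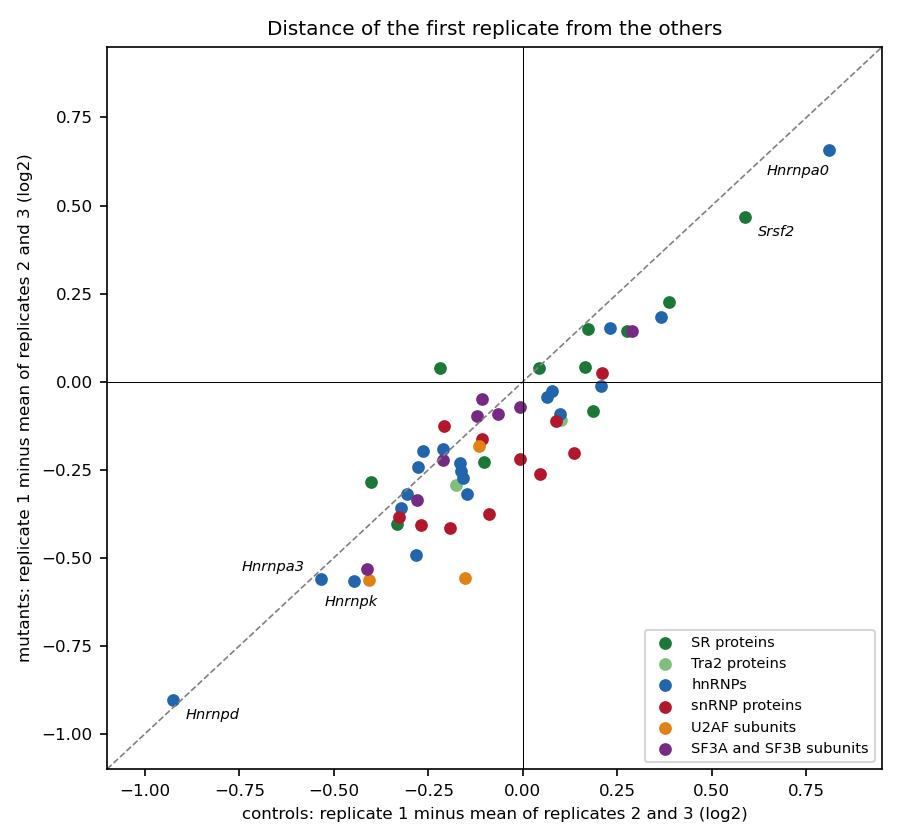
Log2 difference of replicate 1 from the mean of replicates 2 and 3 in controls (x axis) and in mutants (y axis) for each of the 55 splicing genes, coloured by role, with the dashed line marking equal differences. *Hnrnpd* lies at the lower end and *Hnrnpa0* and *Srsf2* at the upper end of both axes.

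Other genes of the splicing pathway, taken from 8 lists with 129 entries, were compared in the same way. Of the 123 that passed the filter, 0 passed an adjusted p of 0.05 in limma and 2 passed an unadjusted p of 0.05, both lower in mutants (all genes, 0.954%). Their median log2 fold change was 0.0079. One was *Rbfox2* itself, in a list of 18 tested tissue-specific regulators. The other was *Snrnp48*, a protein of the minor spliceosome, with 10.3, 10.7 and 10.6 FPKM in controls and 8.66, 9.39 and 9.25 in mutants. Its groups did not overlap, and its log2 fold change was -0.19 (standard error 0.074, limma adjusted p = 1.0). With the replicate number as a block, 4 of the 123 passed an unadjusted p of 0.05, against 6% of all genes. The added ones were *Clk1* and *Clk4*, kinases of SR proteins, which were lower in the mutant of every replicate number. Their log2 fold changes were -0.30 and -0.24 (adjusted p = 0.809 and 0.804 in limma with the block). With a term for the first replicates instead, *Prpf39*, *Rnpc3* and *Srrm2* also came under an unadjusted p of 0.05, all lower in mutants (all genes in either direction, 6.07%).

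By list, the median log2 fold change was -0.033 in the 13 U1 and Sm-like proteins, 0.0068 in the 17 proteins of the U4/U6.U5 tri-snRNP and 0.032 in the 26 Prp19 and catalytic step proteins. It was 0.016 in the 12 proteins that recognise the branch point and intron end, 0.00047 in 8 proteins of the minor spliceosome and -0.023 in 11 kinases, phosphatases and import factors of SR proteins. In the 18 proteins of the exon junction complex and nonsense-mediated decay it was -0.0020, and in the tissue-specific regulators it was 0.037. In the first replicates 66 of the 123 genes were below and 14 above the range of the other samples. Of all genes tested, 34.7% were below and 18.4% above. The catalytic step proteins went one way, with 21 of 26 below and 0 above, and the tissue-specific regulators mostly the other, with 1 of 18 below and 9 above.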

How the data were processed

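The authors isolated poly(A)+ RNA, prepared stranded libraries, sequenced them together and aligned the reads to GRCm38. The submitters' processing notes list FastQC 0.11.4, STAR and Cuffdiff, and the versions of the latter pair, the annotation and the step that made the gene table are not given in the sources used here. The deposited values are FPKM per gene and sample. Counts were not recovered, so no interval for counting error is given, and reads shared between overlapping or related genes (28 of 55 genes overlap another in GENCODE M21) are assigned by unknown rules.

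All 10061 genes with FPKM over 5 in all samples of a group were fitted on log2(FPKM + 1) with limma 3.58.1 (R 4.3.3, intensity trend, no covariate), tested on simulated data. The simulated data held no shift shared by the first replicates, so they do not check the fit under such a shift. Log2 fold changes are mutant over control and understate the change of low genes. Genes named are those with the highest level and the lowest and highest log2 fold change in each role group, and the 5 furthest apart between first and other replicates. The genes and lists were chosen with earlier results of these data known.

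Deviations from group means correlated at 0.64, 0.26 and 0.51 between samples numbered 1, 2 and 3 (across genes), against 0.40 and 0.23 between different numbers among replicates 2 and 3 and -0.68 to -0.37 where 1 sample was a first replicate. The numbers were treated as pairing the samples, from these values alone, and mainly set the first replicates apart. Deviations within a group sum to 0, so a shift shared by the first replicates alone would give signs like these. For numbers 2 and 3 the values do not show a pairing, since control 3 with mutant 2 (0.40) exceeded control 2 with mutant 2 (0.26). Results by replicate number and with the replicate block rest on this assumed pairing. Alternatives were another pseudocount, scaling, filter or trend, a replicate block, a term for the first replicates, a Y-linked covariate, replicates 2 and 3 only and each sample left out. Counts of intervals near 0 and of values above 0 were added after seeing the data.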

Additional observations from a re-analysis of the deposited data

How the results depend on the processing

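The count of 0 of 55 genes past an adjusted p of 0.05 in limma was the same under every alternative run. At most 0.0493% of all genes passed in any of them (without mutant replicate 3), so a count of 0 says little about these 55 genes. The replicate block and the term for the first replicates raised the count at an unadjusted p under 0.05 from 0 to 1 (*Srsf5*), and the block also added *Clk1* and *Clk4* among the other splicing genes (2 to 4 of 123) but changed no other call of a named gene. With replicates 2 and 3 only the count was 2 (*Srsf5* and *Snrpb*, the latter named once its value was seen, against 11.0% of all genes), and 17 genes had groups that did not overlap (45.2% of all genes with 2 samples a group). Quantile normalization gave 1 such gene of 55, *U2af2*, against 5.47% of all genes. With the Y-linked covariate, which separates sex from genotype through mutant replicate 3 alone, the median log2 fold change was 0.146 (all genes, 0.035), the intervals of 22 genes lay within 0.5 of 0 (51.6%), and these genes reversed without an adjusted p under 0.05 in limma: *Hnrnph1* to 0.041, *Sf3b3* to 0.045, *Snrpg* to 0.13, *U2af1l4* to 0.11, *Hnrnpa0* to -0.18 and *Srsf2* to -0.14. With replicates 2 and 3 only, *Snrpg* reversed to 0.037 and *U2af1l4* to 0.099. The cause was not tested. *Rbfox2* passed the adjusted threshold in limma with the term for the first replicates (-0.75, adjusted p = 0.0296) and with replicates 2 and 3 only (-0.82, adjusted p = 0.0407).

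With each sample left out in turn, the unadjusted count was 0 to 1, with the 1 found without mutant replicate 1 (4.08% of all genes). Between 0 and 11 genes had groups that did not overlap. The count was 11 without mutant replicate 1 (24.3% of all genes) and 6 without control replicate 1 (24.8%). The median log2 fold change ran from -0.034 (without control replicate 1) to 0.10 (without mutant replicate 1), and *Rbfox2* from -0.79 to -0.71. The count above 0 ran from 13 (43.9% of all genes) to 44 (56.6%). The count of intervals within 0.5 of 0 ran from 41 (74.1% of all genes) to 46 (76.5% to 80.2%). The ranges of single genes were -0.19 to 0.30 for *Hnrnpa0*, -0.013 to 0.15 for *Hnrnpa1*, -0.14 to 0.22 for *Hnrnpa3*, -0.25 to 0.36 for *Hnrnpd*, -0.094 to 0.24 for *Hnrnpk*, -0.083 to 0.23 for *Sf3a3*, -0.055 to 0.15 for *Sf3b2*, -0.023 to 0.19 for *Snrpd2*, -0.15 to 0.067 for *Snrpg*, -0.14 to 0.21 for *Srsf2*, -0.024 to 0.11 for *Srsf3*, -0.0041 to 0.10 for *Tra2a*, -0.038 to 0.14 for *Tra2b* and -0.15 to 0.15 for *U2af1l4*. Those that kept their sign were *Srsf5* (-0.23 to -0.12), *Hnrnph1* (-0.22 to -0.051), *Sf3b3* (-0.15 to -0.0034, the latter without mutant replicate 1), *Hnrnph3* (0.048 to 0.13) and *U2af2* (0.0067 to 0.11). Leaving out 1 first replicate leaves the other in 1 group only. Depth per value is unknown. The intervals rest on the spread between samples, and a difference smaller than the interval of a given fit was not detectable with that fit.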
